A study of Mus musculus with 25 samples.

Results

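C-type lectin and killer lectin-like receptors were followed as a group of genes across macrophages of white adipose tissue and monocytes of blood. Members were chosen by name: every row of the deposited count table whose symbol starts with Clec and a digit or with Klr, a letter and a digit, plus Mgl2. This gave 69 of 24537 genes. A total of 39 had a mean of at least 5 CPM (read counts scaled to a common effective library size) in at least 1 of the 10 population-by-diet groups and are described here. The other 30 stayed at or below 4.51 CPM in their highest group. Just below the limit were Clec3b (3.90), Clec2f (4.33) and Clec2g (4.51), and just above it Klra9 (6.40), Klrg2 (6.74) and Klra8 (7.56).

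The libraries were made from 200 sorted cells each, and the mice were C57BL6 with no transgene named in the labels. Food held 10% fat in the control groups (CD) and 45% fat in the high fat groups (HFD). Adipose macrophages (titled eWAT) were sorted into 4 gates with 2 libraries per gate and diet. The Tim4+ cells were split by MHCII into pop1 (low) and pop2 (high). The Tim4- cells were split by CD11c into pop3 (negative, with MHCII high) and pop4 (positive, with MHCII present). Blood monocytes were gated on CD115 and Ly6C and had 6 CD and 3 HFD libraries. No member gene encodes a protein of these gates. The labels give no sex, age or diet length, and do not say whether each library came from its own animal, so the p-values measure the spread between these libraries, which may be technical. Adipose tissue was digested with collagenase and flavopiridol, an inhibitor of transcription, and the labels describe no digestion of blood, so tissue and handling cannot be told apart.

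C-type lectin receptors bind sugars, lipids or protein ligands on microbes and on other cells, and myeloid cells use them for uptake and for signals that start or restrain inflammation. Activating members lack a signalling tail and pair with the adaptors Tyrobp (DAP12), Hcst (DAP10) or Fcer1g, or carry a motif that recruits the kinase Syk, which signals on through Card9. Inhibitory members carry a tail that recruits phosphatases such as Ptpn6. The killer lectin-like receptors are best known from natural killer (NK) cells, where they read MHC class I and stress ligands, and many lie together with the Dectin genes in clusters on mouse chromosome 6.

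Of the 69 members, 60 lie on chromosome 6. By role, 36 were killer lectin-like genes (18 described), 9 belonged to the Dectin-2 cluster (8 described) and 6 to the Dectin-1 cluster (5 described). A further 7 were Clec2 genes, which encode ligands of killer lectin-like receptors (2 described), 6 were galactose-binding or other endocytic lectins (4 described), and 5 were soluble, matrix or other genes (2 described). Several members are close copies of one another. In 11 of the described genes more than 10% of the 50-base stretches of the transcript occurred in another gene as well. The highest shares were in Klrc1 (40.3%, mostly with Klrc2), Klra8 (33.1%), Klra9 (32.4%), Klrb1b (29.0%) and Klra3 (21.5%). Mgl2 shared 17% with Clec10a, and Klrb1a 11% with Klrb1c, while Klrk1, Klrd1, Klra2 and Clec4e shared none. Of the 20 Klra models 17 overlap another member on the genome, and Klra8 and Klra21 hold nearly the same reads, so values of the Klra genes other than Klra2, Klra5 and Klra17, which overlap none, are uncertain.

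Promoter sequences from RefSeq (GRCm38.p6) were matched for 49 of the 69 members, each running from 250 bases before the start site to 50 bases from it on. They are shown for 4 genes that the results turn on: the activating receptor gene Klrk1, Klrb1a from the same chromosome, the myeloid Ly49 gene Klra2 and the Mincle gene Clec4e. Capitals mark matches, on either strand, to the letters searched: C/EBP (TTGCNNAA), RUNX (TGTGGTT), AP-1 (TGANTCA) and STAT (TTCNNNGAA). The other letters searched were PU.1 (GAGGAAGT), T-box (TCACACC), an NF-kB site and an interferon element. None of these 4 were in the shown promoters. The intervals are chr6:129623815-129624114 for Klrk1, chr6:128622885-128623184 for Klrb1a, chr6:131247313-131247612 for Klra2 and chr6:123289822-123290121 for Clec4e, all on the minus strand and written 5′ to 3′.
Klrk1: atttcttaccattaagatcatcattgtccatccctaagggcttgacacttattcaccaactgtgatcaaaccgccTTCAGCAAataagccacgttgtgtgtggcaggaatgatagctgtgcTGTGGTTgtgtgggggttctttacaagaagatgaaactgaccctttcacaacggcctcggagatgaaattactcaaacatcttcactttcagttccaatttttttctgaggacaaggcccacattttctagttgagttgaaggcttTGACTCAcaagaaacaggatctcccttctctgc
Klrb1a: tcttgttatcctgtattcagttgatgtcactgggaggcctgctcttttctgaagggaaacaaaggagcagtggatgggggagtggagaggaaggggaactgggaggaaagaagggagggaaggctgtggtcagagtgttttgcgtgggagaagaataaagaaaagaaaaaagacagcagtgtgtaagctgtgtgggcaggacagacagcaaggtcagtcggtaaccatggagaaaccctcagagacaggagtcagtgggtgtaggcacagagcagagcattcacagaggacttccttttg
Klra2: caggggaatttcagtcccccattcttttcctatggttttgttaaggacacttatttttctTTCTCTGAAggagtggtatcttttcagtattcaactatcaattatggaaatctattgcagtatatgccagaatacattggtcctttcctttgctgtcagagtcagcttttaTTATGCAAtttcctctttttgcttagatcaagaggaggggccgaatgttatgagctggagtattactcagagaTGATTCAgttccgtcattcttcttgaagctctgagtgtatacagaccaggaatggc
Clec4e: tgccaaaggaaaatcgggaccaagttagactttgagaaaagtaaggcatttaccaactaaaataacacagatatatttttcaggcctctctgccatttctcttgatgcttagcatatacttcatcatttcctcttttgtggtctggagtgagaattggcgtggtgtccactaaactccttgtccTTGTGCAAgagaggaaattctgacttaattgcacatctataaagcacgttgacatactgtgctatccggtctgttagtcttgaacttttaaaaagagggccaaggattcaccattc
With the start site at 0, the Klrk1 window held C/EBP letters at -175, RUNX letters at -129 and AP-1 letters at 17. The Klra2 window held STAT letters at -190, C/EBP letters at -79 and AP-1 letters at -6, which do not overlap. Clec4e had C/EBP letters at -66, and Klrb1a had none of the 8. C/EBP letters were in 15 of the 49 member promoters (30.6%) and in 10.8% of 32851 RefSeq promoters of the same length. AP-1 letters were in 10 (20.4%, against 7.81%), STAT letters in 5 (10.2%, against 8.3%) and RUNX letters in 4 (8.16%, against 5.27%). PU.1 letters were in none of the 49, against 3.2% of all promoters. T-box letters were in 4 (8.16%, against 3.98%), interferon element letters in 3 (6.12%, against 3.44%) and NF-kB letters in 1 (2.04%, against 0.411%). Neighbouring copies share sequence, so the member promoters are not independent, and a match is a description of letters only.

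Total counts were 3752835 to 9336395 per library, and 3 counts, taken as the floor for a gene, corresponded to 0.341 to 0.698 CPM. All 8 macrophage markers averaged over 1 CPM in the adipose libraries, and all 7 monocyte markers did so in the monocytes. The 7 monocyte markers did so in the adipose libraries too, and of the 8 macrophage markers only C1qa and Mertk averaged less in monocytes. The macrophage list summed to 1959 to 5193 CPM in adipose and 1543 to 2086 CPM in monocyte libraries. For the monocyte list the sums were 1357 to 2417 and 4796 to 6248 CPM. Counts of olfactory and vomeronasal receptor genes, which none of these cells should express, summed to 78.9 to 682 CPM in adipose and 92.9 to 254 CPM in monocyte libraries. In pop1, pop2, pop3 and pop4 they summed to 243 to 638, 386 to 682, 192 to 655 and 78.9 to 189 CPM. In the monocytes the cytotoxic cell gene Nkg7 was at 52.9 to 132 CPM in 6 of 9 libraries and at or below 0.249 CPM in the other 3. Other scalings moved the median log2 difference of all genes by at most 0.16 between adipose macrophages and monocytes, by up to 0.13 between adipose populations, and by -0.19 to 0.18 in the diet comparisons. With DESeq2 size factors 60.2% of the genes called between Tim4+ and Tim4- populations were higher, against 48.2% in the fit used here. Between pop3 and pop4 these shares were 74.7% and 64.6%.

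**Figure D1:**
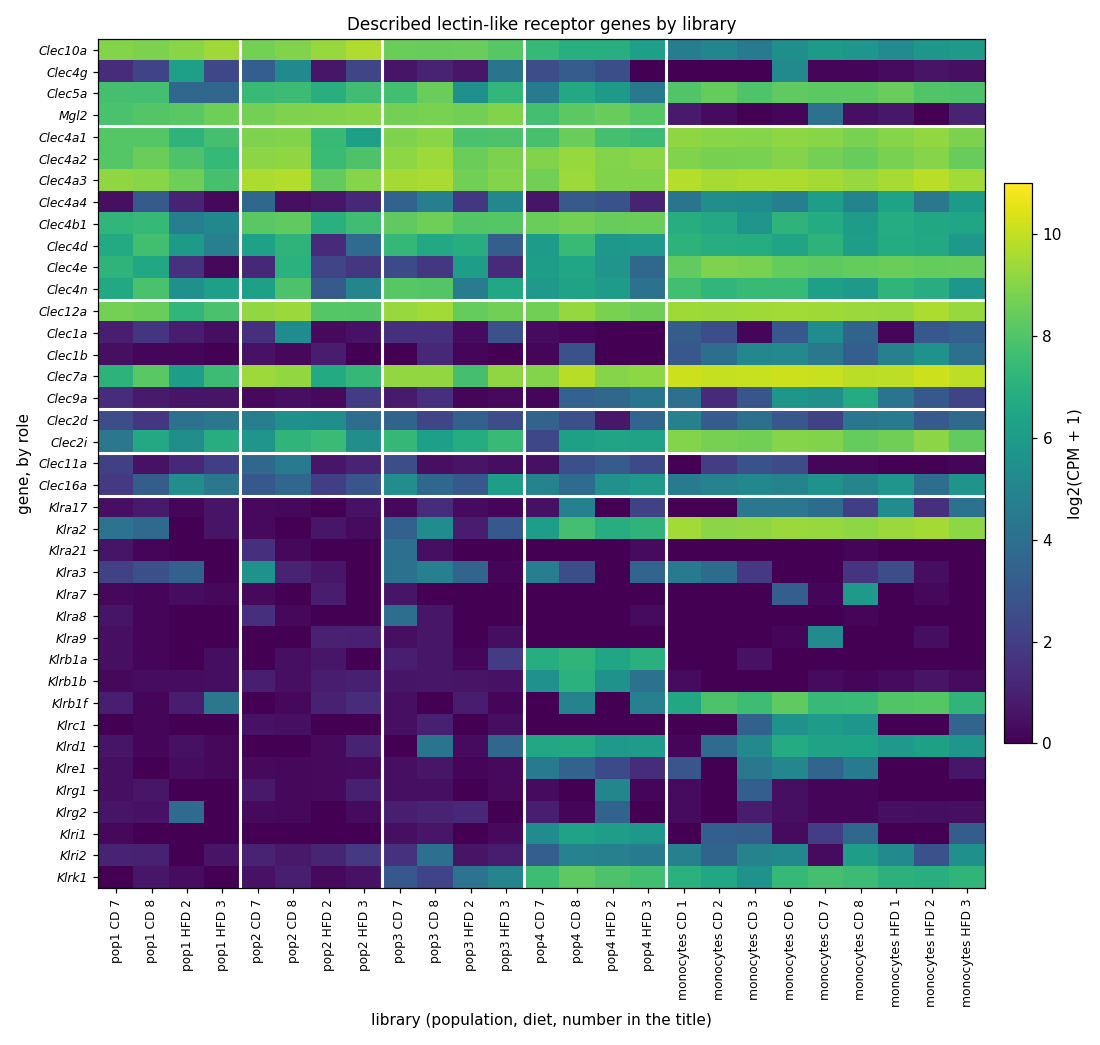
Levels of the 39 described genes, as log2(CPM + 1), in each of the 25 libraries. Rows are genes grouped by role, columns are libraries grouped by population and diet, and white lines separate the groups. The block of killer lectin-like genes at the bottom is bright in pop4 and in monocytes only for some rows, among them Klrk1, and Mgl2 is bright in the 16 adipose libraries and dark in the 9 monocyte libraries.

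Per kilobase of gene model, the scale on which genes can be compared, 2 lectins led in each population. In pop1 these were Clec10a (363 ± 68.3 CPM per kb, SD, n = 4) and Clec4a3 (330), and in pop2 Clec4a3 (480) and Clec10a (400 ± 126). In pop3 they were Clec4a3 (464) and Clec4b1 (399), and in pop4 Clec4b1 (482) and Clec4a3 (392). In monocytes Clec4a3 (601) was followed by Clec7a (464). Klrk1 stood at 74.5 CPM per kb in pop4 and 43.1 in monocytes, and Klrb1a at 93.8 in pop4.

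Klrk1 (chromosome 6, 129610323 to 129623864) encodes NKG2D, an activating receptor for stress-induced ligands that signals through Hcst and, in mice, Tyrobp. In pop4 it was read at 192 and 312 CPM on CD and at 244 and 203 CPM on HFD. In pop3 it was at 7.28 and 3.58 CPM on CD and at 17.4 and 31.2 CPM on HFD. In pop1 and pop2 its 8 libraries ran from 0 to 0.872 CPM. Monocytes had 49.4 CPM in the lowest library, 133 in the median and 218 in the highest. All 4 pop4 libraries were thus above all pop3 libraries, which were in turn above all Tim4+ libraries, and the monocytes overlapped pop4. Klrk1 was lower in pop3 than in pop4 (log2 difference -4.36, SE 0.54, adjusted p = 3.03e-05, edgeR) and lower in pop2 than in pop3 (-4.57, SE 0.63, adjusted p = 6.25e-04). Between pop4 and monocytes the difference was 0.80 (SE 0.39, adjusted p = 0.22).

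Klrb1a and Klrb1b encode the NKR-P1A and NKR-P1B receptors, the first activating and the second inhibitory. Klrb1a (chromosome 6, 128609227 to 128622934) was at 114 and 146 CPM on CD and 89.9 and 125 CPM on HFD in pop4. Outside pop4 its highest value was 2.73 CPM, in pop3 HFD replicate 3, and 8 of 9 monocyte libraries had no read. Klrb1b (chromosome 6, 128813706 to 128826315) was at 46.7 and 130 CPM on CD and 49.3 and 16.1 CPM on HFD in pop4, and at most at 0.930 CPM in any other library. No library outside pop4 reached the levels within it for either gene. Against monocytes the log2 difference of pop4 was 11.47 for Klrb1a (SE 1.34, adjusted p = 7.4e-06) and 8.03 for Klrb1b (SE 0.88, adjusted p = 1.55e-06). Means in monocytes were below the floor, at 0.0518 and 0.182 CPM, so the size of these fitted differences depends on the prior count. In pop3 against pop4 they were -6.83 (SE 1.33, adjusted p = 0.00437) and -6.68 (SE 1.04, adjusted p = 4.16e-04). Klrb1c, the NK1.1 gene of the same family, was not among the described genes and averaged 0.289 ± 0.286 CPM in pop4 (SD, n = 4).

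Klri1 and Klrd1 encode partners in heterodimeric receptors. Klri1 (chromosome 6, 129697218 to 129717132) was at 39.4 and 81.9 CPM on CD and 71.3 and 57.4 CPM on HFD in pop4, and at most at 0.565 CPM in pop1 to pop3. Monocytes ran from 0 to 12.1 CPM with a median of 3.04. Pop4 lay above all other libraries. Klri1 was lower in pop3 than in pop4 (-7.96, SE 1.98, adjusted p = 0.0233), a call lost in 6 of 25 omissions of 1 library (4 of pop3, pop4 CD replicate 8 and pop4 HFD replicate 2, adjusted p 0.0581 to 0.11, log2 -9.41 to -7.52). It was higher in pop4 than in monocytes (4.00, SE 1.27, adjusted p = 0.0467). That call was lost in 13 of 25 omissions, at 3.68 to 4.21 and adjusted p 0.0511 to 0.121, when any pop4 library, a pop1 or pop3 CD library, monocyte CD replicate 2, 3 or 7, or monocyte HFD replicate 1 or 2 was left out.

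Klrd1 (chromosome 6, 129591811 to 129598775), the CD94 chain that joins NKG2 chains, was at 93.5 and 101 CPM on CD and 58.4 and 65.3 CPM on HFD in pop4. In pop3 it was at 0 and 17.7 CPM on CD and 0.236 and 11.4 CPM on HFD, and in pop1 and pop2 it was at most at 1.16 CPM. Monocytes ran from 0.125 to 108 CPM with a median of 59.3. One library of each pop3 pair was high and 1 low, and monocytes overlapped pop4. Its NKG2A partner Klrc1 had no read in any pop4 library, and in monocytes it ran from 0 to 66.9 CPM with a median of 9.67. Klrc1 was at least 55-fold higher in monocytes (mean 21.1 CPM) than the pop4 floor of 3 counts per library (mean 0.383 CPM). It was lower in pop4 (adjusted p = 0.0313, edgeR), a call lost when any 1 of the 4 pop4 libraries was left out (log2 -9.21). The call was also lost without monocyte HFD replicate 3 (-5.35, SE 19162.60). That omission leaves the HFD monocytes with no Klrc1 read, so the fit there is not informative.

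Klra2 (chromosome 6, 131219235 to 131247362) encodes Ly49B, an inhibitory receptor found on myeloid cells. It was highest in monocytes, at 549 to 736 CPM with a median of 637. In pop4 it was at 70.8 and 210 CPM on CD and 113 and 140 CPM on HFD. In pop3 it was at 9.59 and 39.7 CPM on CD and 0.827 and 7.05 CPM on HFD, and in pop2 it was at most at 0.594 CPM. Monocytes, pop4, pop3 and pop2 thus followed in that order with no overlap, while pop1, at 0 to 17.3 CPM, overlapped pop3 and pop2. Each step passed: pop4 against monocytes (-2.24, SE 0.44, adjusted p = 0.00113), pop3 against pop4 (-3.75, SE 0.51, adjusted p = 8.9e-05) and pop2 against pop3 (-5.45, SE 0.76, adjusted p = 7.54e-04). Without the 6 monocyte libraries with Nkg7 the first step was -2.32 with an adjusted p of 0.0537. Klrb1f, another NKR-P1 gene, was at 94.7 to 316 CPM in monocytes (median 193). In pop4 it was at 0 and 29.2 CPM on CD and 0 and 26.3 CPM on HFD, so 1 library of each pair was high and 1 had no read. It was lower in pop4 than in monocytes (-3.94, SE 1.14, adjusted p = 0.0248), but not without pop4 CD replicate 7 (adjusted p = 0.0787) or pop4 HFD replicate 2 (adjusted p = 0.0798), both at log2 -3.44. It was lower in pop3 than in pop4 (-5.48, SE 1.45, adjusted p = 0.0275). That call was lost without any 1 pop3 library (-7.24 to -5.0, adjusted p 0.0678 to 0.114). It was also lost without pop4 CD replicate 8 (-0.65, adjusted p = 0.948) or pop4 HFD replicate 3 (-0.73, adjusted p = 0.939).

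**Figure D2:**
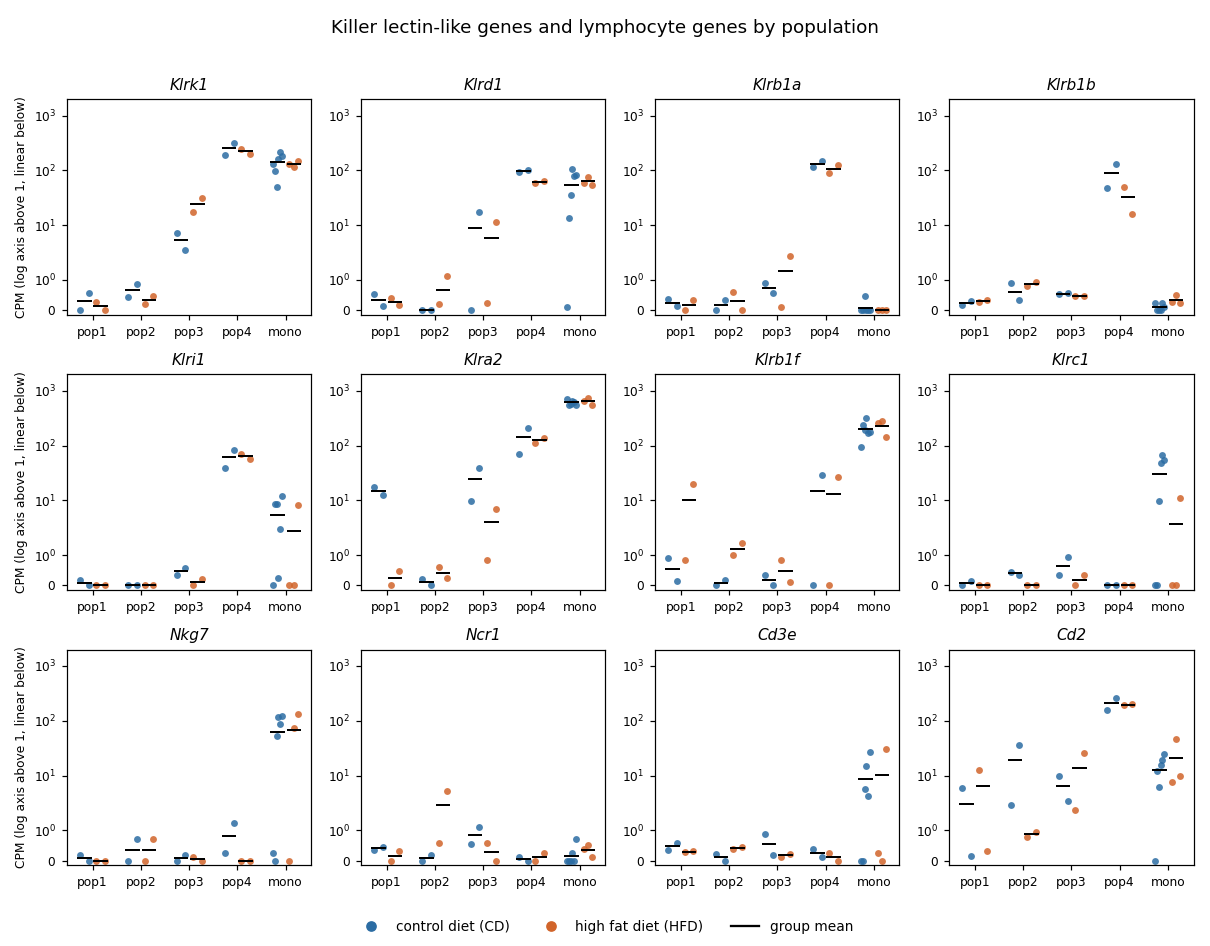
CPM of 8 killer lectin-like genes and of 4 genes of NK and T cells in each library (points, blue CD, orange HFD), with group means as lines. The vertical axis is logarithmic above 1 CPM and linear below. Klrk1, Klrb1a, Klrb1b and Klri1 are high in the 4 pop4 libraries. There the NK cell gene Ncr1 and the T cell gene Cd3e stay below 1 CPM. Nkg7 is at or below 1.34 CPM in pop4, while Cd2 is at 157 to 257 CPM. The T cell genes Cd3d and Cd3g are not plotted and reach higher values in pop4, up to 30.8 CPM for Cd3g.

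Markers of NK and T cells moved in part with these genes. Of 11 NK cell markers 9 averaged under 1 CPM in pop4 (Ncr1, Nkg7, Gzma, Gzmb, Prf1, Eomes, Tbx21, Il2rb and Xcl1). The exceptions were Cd7 (13 ± 12.2 CPM) and Ccl5 (23.9 ± 23.2 CPM). The list summed to 7.27 to 54.1 CPM in pop4, 3.18 to 87.5 CPM in pop1 to pop3 and 29.9 to 474 CPM in monocytes. Of 10 T cell markers 4 averaged under 1 CPM in pop4 (Cd3e, Cd4, Cd8a and Bcl11b). The list summed to 252 to 428 CPM there, against 13.7 to 184 CPM in pop1 to pop3 and 2.74 to 355 CPM in monocytes. Most of the pop4 sum was Cd2, at 157 to 257 CPM, and Il7r, at 74.3 to 202 CPM. Unlike Cd3e, the CD3 chain genes Cd3d and Cd3g had reads in pop4. Cd3g was at 0 and 19.5 CPM on CD and 30.8 and 2.10 CPM on HFD there. Cd3d was at 1.83 and 4.44 CPM on CD and at 6.42 CPM or more on HFD. In pop1 to pop3 Cd3g was at most at 1.13 CPM and Cd3d at 0.942 CPM. Monocytes reached 109 CPM of Cd3g and 91.2 CPM of Cd3d. The 6 markers of type 2 dendritic cells summed to 884 to 1105 CPM in pop4 and 650 to 1377 CPM in pop1 to pop3. Of these Dpp4 was at 61.7 to 90.9 CPM in pop4 and at most at 39.1 CPM in pop1 to pop3. Flt3 was at 0.741 to 93.0 against at most 2.79 CPM, and Kmo at 16.8 to 45.4 against 23.4 to 152 CPM. The part of NK, T or dendritic cells in the levels of the other pop4 genes was not tested. In bulk libraries fewer cells of a type and less RNA per cell cannot be told apart.

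In monocytes, reads of Klrc1, Klra7 and Klra9 lay in libraries that also had Nkg7. Klrc1 was at 9.67, 47.6, 66.9 and 54.4 CPM in CD replicates 3, 6, 7 and 8 and at 11 CPM in HFD replicate 3, all of which had at least 52.9 CPM of Nkg7, and at 0 CPM in the other 4 libraries. Of those, only HFD replicate 2 had Nkg7 (73.7 CPM). Klrk1, Klra2 and Klrb1f were read in all 9 monocyte libraries, with or without Nkg7. In the 3 libraries without it, Klrk1 was at 97 to 133 CPM and Klra2 at 549 to 719 CPM. Of other NK cell markers, Cd7 was at 21.7 to 111 CPM and Ccl5 at 5.00 to 9.57 CPM in those 3, and Ncr1 at most at 0.385 CPM. A lack of Nkg7 alone thus does not tell whether NK cells were present.

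Mgl2 (chromosome 11, 70130357 to 70137542) and Clec10a (chromosome 11, 70166623 to 70170836) encode the galactose-type lectins MGL2 and MGL1, which bind galactose and N-acetylgalactosamine and are widely used as markers of tissue macrophages and of some dendritic cells. Mgl2 was at 231 to 384 CPM in pop1, 418 to 511 CPM in pop2, 408 to 485 CPM in pop3 and 206 to 346 CPM in pop4. In monocytes 8 of 9 libraries were at or below 1.09 CPM, and CD replicate 7 was at 16.7 CPM. All 16 adipose libraries were above all monocyte libraries. Mgl2 was higher in adipose macrophages (log2 difference 8.02, SE 0.93, adjusted p = 8.74e-07), and between Tim4+ and Tim4- populations it differed by 0.07 (SE 0.61, adjusted p = 0.959). Clec10a was at 449 to 684 CPM in pop1, 420 to 836 CPM in pop2, 282 to 373 CPM in pop3, 72.8 to 164 CPM in pop4 and 22.8 to 62.4 CPM in monocytes. These ranges overlap only between pop1 and pop2. Clec10a was higher in adipose macrophages than in monocytes (2.87, SE 0.20, adjusted p = 6.38e-10), in Tim4+ than in Tim4- populations (1.47, SE 0.20, adjusted p = 3.09e-05) and in pop3 than in pop4 (1.52, SE 0.28, adjusted p = 0.00236). The 2 genes share 17% and 16.7% of their 50-base stretches, so part of their reads could have been assigned to either.

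**Figure D3:**
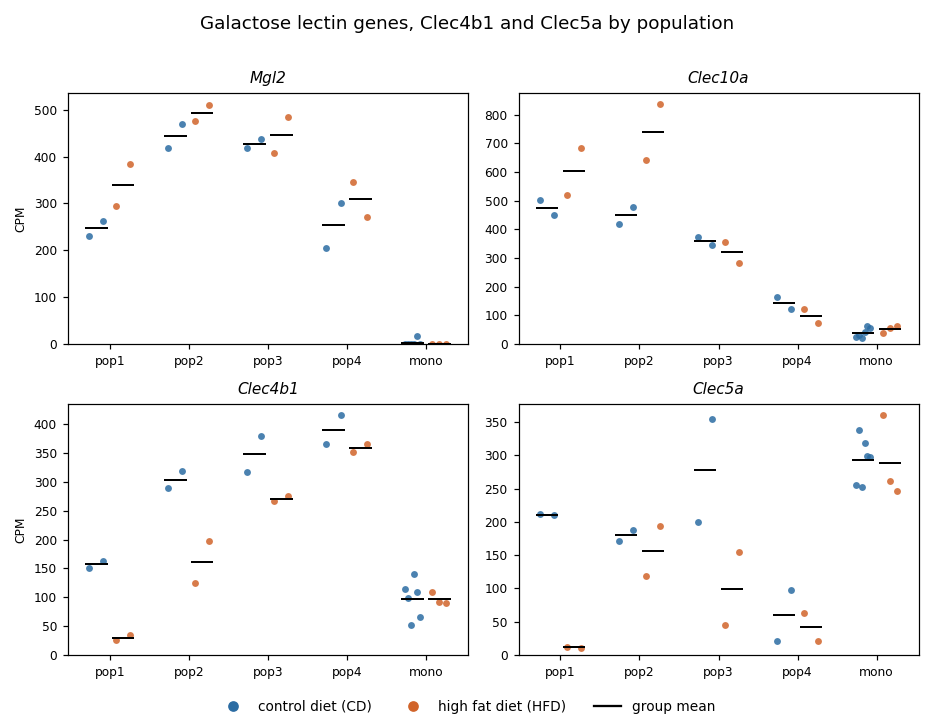
CPM of Mgl2, Clec10a, Clec4b1 and Clec5a in each library (points, blue CD, orange HFD), with group means as lines and a linear axis from 0 in each panel. Mgl2 is high in all 4 adipose populations, Clec10a steps down from pop1 and pop2 to pop3, pop4 and monocytes, and Clec5a is at 12.1 and 11.4 CPM in the 2 pop1 HFD libraries.

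Over all adipose groups against monocytes, 26 of the 38 described and tested members passed, 6 higher and 20 lower in adipose macrophages. Of all 16961 genes tested 37.0% passed, 18.5% in each direction. The median log2 difference was -1.03 over the 38 members, -0.76 over all 51 members tested and 0.19 over all genes tested. Members were described because at least 1 group had them at 5 CPM or more, so these counts describe them and support nothing. The log2 difference gives each population the same weight, so a gene high only in pop4 can have the higher mean and yet a negative difference. Besides Mgl2, Clec10a, Klrb1a (5.27, SE 1.09) and Klrb1b (2.93, SE 0.64), the higher genes were Clec4b1 and Clec11a. The Klrb1a call was lost without pop1 HFD replicate 3, pop2 CD replicate 8 or pop2 HFD replicate 2 (4.75 to 4.85, adjusted p = 1), each leaving a pair with 1 library without reads, and the Klrb1b call without the 6 monocyte libraries with Nkg7 (2.87, adjusted p = 0.0926). Clec4b1, which encodes the activating receptor DCAR, was higher by 1.07 (SE 0.16, adjusted p = 2.26e-05) and was at 352 to 416 CPM in pop4 against 52.6 to 141 CPM in monocytes. Clec11a, a secreted growth factor gene, passed at 2.70 (SE 1.0, adjusted p = 0.0385), a call lost in 12 of 25 omissions of 1 library (2.33 to 3.60, adjusted p 0.0512 to 0.102), and from the CD groups alone it was at 0.79 (SE 0.98, adjusted p = 0.575). Its highest values were 12.1 and 21.6 CPM in pop2 CD.

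The lower genes in adipose macrophages included all 5 described genes of the Dectin-1 cluster and 4 of 8 of the Dectin-2 cluster. Clec7a (chromosome 6, 129461591 to 129472779), the beta-glucan receptor Dectin-1, was at 941 to 1146 CPM in monocytes and 69.9 to 891 CPM in adipose libraries, with no overlap (-1.59, SE 0.17, adjusted p = 2.59e-07). Clec4e (chromosome 6, 123281789 to 123289871), the glycolipid receptor Mincle, was at 309 to 464 CPM in monocytes and 0.162 to 142 CPM in adipose libraries, again with no overlap (-4.35, SE 0.50, adjusted p = 8.8e-07). Clec2i, which encodes Clr-g, a ligand of NKR-P1 receptors, was at 331 to 548 CPM in monocytes and 4.17 to 178 CPM in adipose libraries (-2.35, SE 0.35, adjusted p = 2.02e-05). Clec1b, the podoplanin receptor CLEC-2, was at 6.85 to 48.0 CPM in monocytes and at most at 5.65 CPM in adipose libraries (-6.72, SE 0.75, adjusted p = 7.63e-07). Platelets also carry CLEC-2. Of 6 platelet markers 4 were lower in adipose macrophages, like Clec1b, and 1 was higher. Gp9 was at or below 0.728 CPM in every adipose library and at 0 to 41.4 CPM in monocytes, and Ppbp averaged 40.7 against 196 CPM. Pf4 averaged 585 against 80.4 CPM and made up most of the adipose sum of the list (173 to 985 CPM, against 147 to 531 CPM in monocytes). Their part in the Clec1b difference was not tested. Clec9a, the dendritic cell receptor DNGR-1, was at 1.51 to 107 CPM in monocytes and 0.118 to 18.6 CPM in adipose libraries (-3.96, SE 0.67, adjusted p = 1.06e-04, edgeR). In pop4 it was at 0.130 and 9.95 CPM on CD and 11.5 and 18.6 CPM on HFD, and in pop1 to pop3 at most at 2.79 CPM. Of 6 markers of type 1 dendritic cells 2 were lower and 2 higher in adipose macrophages. Xcr1 (0.697 to 18.9 CPM in adipose libraries, 8.34 to 46.7 CPM in monocytes) and Irf8 (15.2 to 124 against 118 to 238 CPM) had the lower means in adipose libraries, as Clec9a did, while Batf3 averaged 112 against 41.5 CPM and Cadm1 15.2 against 0.415 CPM. In pop4 Batf3 was at 140 to 184 CPM, Cadm1 at 12.9 to 62.3 CPM and Irf8 at 15.2 to 28.8 CPM. For pop1 to pop3 these ranges were 33.9 to 149, 0.487 to 64.5 and 28.5 to 124 CPM. The sum of the list was 139 to 403 CPM in adipose libraries and 180 to 395 CPM in monocytes, and the part of such cells in the Clec9a difference was not tested.

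Of the killer lectin-like genes, 8 were lower and 2 higher in adipose macrophages. The largest lower differences were in Klrc1 (-7.25, SE 1.31), Klrb1f (-7.24, SE 0.76) and Klra2 (-7.01, SE 0.33), followed by Klrk1 (-5.02, SE 0.31), Klrd1 (-4.77, SE 0.80), Klra17 (-4.30, SE 0.96) and Klri2 (-3.59, SE 0.62). Their adjusted p were 1.27e-12 to 0.0016. The Klrc1 call was lost without monocyte HFD replicate 3 (-3.40, SE 10582.30). That omission leaves the HFD monocytes with no Klrc1 read, so the fit there is not informative. Without the 6 monocyte libraries with Nkg7, Klrd1 was at -3.29 (adjusted p = 0.0623) and Klra17 at -0.37 (adjusted p = 0.886), whereas Klrb1f, Klra2, Klrk1 and Klri2 still passed. Klrc1, left with few reads, gave no value there. Klri1 passed at -3.57 (SE 1.03, adjusted p = 0.0118) although its mean was higher in adipose libraries (15.7 against 4.55 CPM). Klri1 was at 0.25 without those 6 libraries and at 0.09 (SE 189.86) without monocyte HFD replicate 3. Both settings leave the HFD monocytes with no Klri1 read, so the sign of these values is not informative.

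Against pop4 alone, 6 described members were higher and 12 lower than in monocytes, where 12.5% of all genes passed (7.16% higher in pop4 and 5.30% lower). The higher ones were Klrb1a, Klrb1b, Mgl2 (7.66, SE 0.95), Klri1, Clec4b1 (1.94, SE 0.21) and Clec10a (1.37, SE 0.23). Among the lower, Clec1a (-7.03), Clec1b (-6.75), Clec4a4 (-3.60), Clec2i (-2.92), Clec4e (-2.81) and Clec5a (-2.55) had larger differences than Klra2, and Clec4a1 (-1.12) a smaller one. Their adjusted p were 1.07e-04 to 0.0317. Leaving out pop4 CD replicate 7 ended the calls of Clec1a (-7.29, adjusted p = 0.0536), Clec4a4 (-3.15, adjusted p = 0.167) and Clec4e (-2.72, adjusted p = 0.131). The call of Clec4e was also lost without pop4 CD replicate 8 (-2.93, adjusted p = 0.0871) or pop4 HFD replicate 3 (-2.47, adjusted p = 0.145). That of Clec1a was lost without any other pop4 library as well (-7.04 to -6.86, adjusted p 0.0568 to 0.0601). That of Clec4a4 was lost without pop4 HFD replicate 2 or 3 (-4.41 and -3.22) or monocyte HFD replicate 1 or 3 (-3.39 and -3.54), at adjusted p 0.0526 to 0.178. Without the 6 monocyte libraries with Nkg7, 9 members passed, and Clec1a (-4.02, adjusted p = 0.237), Clec4a4 (-3.79, adjusted p = 0.166), Clec4e (-2.97, adjusted p = 0.174), Klrb1f (-3.91, adjusted p = 0.232) and Klri1 (7.81, adjusted p = 0.071) did not. From the CD groups alone 9 passed as well. Of all genes 824 passed without those 6 libraries and 1091 from the CD groups alone, against 2113 in the main fit.

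The Tim4 comparison set pop1 and pop2 (n = 8) against pop3 and pop4 (n = 8). Here 1 described member, Clec10a, was higher and 12 were lower in Tim4+ populations, where 15.1% of all genes passed (7.26% higher and 7.79% lower). The lower ones were 7 killer lectin-like genes with large differences and 5 Clec genes with smaller ones. Of the 7, Klrb1a, Klrb1b and Klri1 were at most at 2.73, 0.930 and 0.565 CPM in pop1 to pop3, so their differences rest on pop4. Klrk1 (-7.28, SE 0.48), Klri1 (-7.17, SE 1.67), Klrd1 (-6.95, SE 1.22), Klra2 (-5.79, SE 0.48), Klrb1a (-5.56, SE 0.94), Klrb1b (-3.53, SE 0.67) and Klri2 (-3.10, SE 0.82) had adjusted p of 2.37e-09 to 0.0142. Without pop3 CD replicate 8, the Klrd1 library with 17.7 CPM, the Klrd1 call was lost (-4.77, adjusted p = 1), and without pop3 HFD replicate 3 that of Klri1 (-6.44, adjusted p = 1). Both omissions leave a pair with 1 library at or near 0. Clec16a, an autophagy gene that carries the Clec name, differed by -1.81 (SE 0.49, adjusted p = 0.0164). Its call was lost without pop3 CD replicate 7 or pop3 HFD replicate 3 (-1.53 to -1.21, adjusted p 0.0531 to 0.0938). Clec4b1 differed by -1.46 (SE 0.18), Clec7a by -1.31 (SE 0.21), Clec4a2, an inhibitory receptor of the DCIR family, by -0.79 (SE 0.12), and Clec12a, an inhibitory receptor for uric acid crystals, by -0.53 (SE 0.10), with adjusted p 9.33e-06 to 0.00145. Without the 2 pop2 HFD libraries, Clec7a (-0.70, adjusted p = 0.0746), Clec4a2 (-0.41, adjusted p = 0.0886), Clec12a (-0.18, adjusted p = 0.376) and Clec16a (-1.54, adjusted p = 0.0986) no longer passed. That setting leaves pop2 with CD libraries only, so the Tim4+ side holds more CD than the Tim4- side and diet enters the difference. Of all genes 1378 passed there. With the olfactory and vomeronasal receptor counts as a covariate 6 members passed (450 of all genes), and Klri1, Klrb1a, Klrb1b, Klri2, Clec7a, Clec12a and Clec16a did not. These counts averaged 463 CPM in Tim4+ and 257 CPM in Tim4- libraries, so the covariate and the population are not fully separate. From the CD groups alone 5 passed (353 of all genes). Clec4e differed by -0.91 (SE 0.62, adjusted p = 0.319).

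Between neighbouring populations fewer members passed. Pop2 against pop3, both MHCII high, gave Klra2 and Klrk1, both lower in pop2, where 1.03% of all genes passed (0.896% lower), and pop1 against pop2 gave Clec4b1, where 0.466% passed. Clec4b1 was at 151 and 163 CPM on CD and 25.4 and 34.4 CPM on HFD in pop1, and at 289 and 319 CPM on CD and 125 and 198 CPM on HFD in pop2 (-1.69, SE 0.25, adjusted p = 0.00135). Within each diet both pop1 libraries were below both pop2 libraries, but from the CD groups alone the difference was -0.95 (SE 0.35) and did not pass (adjusted p = 0.445). Without the 2 pop2 HFD libraries 7 members passed in pop1 against pop2. That setting puts both diets of pop1 against pop2 CD alone, so diet enters the difference, and 268 of all genes passed against 79. In pop3 against pop4, 2 described members were higher and 6 lower, where 6.57% of all genes passed (4.25% higher and 2.32% lower). The lower ones were all killer lectin-like: Klri1, Klrb1a, Klrb1b, Klrb1f, Klrk1 and Klra2. The higher ones were Clec10a and Clec5a, which encodes MDL-1, a partner of Tyrobp. Clec5a was at 200 and 355 CPM on CD and 44.5 and 155 CPM on HFD in pop3, and at 21.5 and 97.6 CPM on CD and 62.6 and 20.7 CPM on HFD in pop4 (1.74, SE 0.41, adjusted p = 0.0135), with overlap. That call was lost without pop3 HFD replicate 3 (1.14, adjusted p = 0.0902), pop4 CD replicate 7 (1.37, adjusted p = 0.0563) or pop4 HFD replicate 3 (1.43, adjusted p = 0.0781). With the olfactory and vomeronasal receptor counts as a covariate only Klrk1 passed, where 144 of all genes did against 1114 without it. These counts did not overlap between pop3 (192 to 655 CPM) and pop4 (78.9 to 189 CPM), so covariate and population cannot be told apart there. From the CD groups alone Klrk1 and Klrb1b passed (297 of all genes), and with DESeq2 14 members (2524 of all genes). Mgl2, whose pop3 libraries were all above its pop4 libraries, differed by 0.64 (SE 0.86, adjusted p = 0.672) in the fit that includes the near-zero monocytes. In the 16 adipose libraries alone it was higher in pop3 and passed (0.72, SE 0.16, adjusted p = 0.0234), and with the covariate it was at -0.91 (SE 1.88, adjusted p = 0.965). Clec4e differed by -2.16 (SE 0.87, adjusted p = 0.122).

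The diet comparisons asked which members differ between HFD and CD within a population. The adipose controls all carry the title CD-CD, which means that diet and title series cannot be told apart there. Averaged over the 4 adipose populations, 10 described members were lower on HFD and none higher, where 5.34% of all genes passed (3.67% lower and 1.67% higher). With DESeq2's own test 12 were lower and none higher, where 1966 of all 16961 genes passed against 906 with edgeR. With the summed olfactory and vomeronasal receptor counts as a covariate 6 passed, without Clec4b1, Clec4d, Clec4e and Clec4n, and 379 of all genes did. All 10 were Clec genes, 7 of them from the Dectin-2 cluster, and none was killer lectin-like. Markers of other cells were also lower on HFD in part. The 6 neutrophil markers summed to 21.2 to 351 CPM on CD and 6.17 to 179 CPM on HFD, with 1 of the 6 called lower. The largest part of that sum in every pop1 to pop3 library was Mmp9, at 31.9 to 324 CPM. In any adipose library S100a9 was at most at 0.364 CPM, Cxcr2 at 1.86 CPM and S100a8 at 15.3 CPM. The 5 stromal markers summed to 51.1 to 1213 CPM and 9.22 to 605 CPM, with none called. Of the 8 macrophage markers 2 were called lower, and Cd68 was at 716 and 597 CPM on CD and 159 and 160 CPM on HFD in pop2. Their part in the diet differences was not tested. Clec4a1, of the DCIR family, was at 271 and 273 CPM in pop1 CD and 142 and 218 CPM in pop1 HFD. In pop2 it was at 471 and 480 CPM on CD and 168 and 74.4 CPM on HFD. In pop3 it was at 463 and 524 CPM on CD and 227 and 243 CPM on HFD, and in pop4 at 221 and 357 CPM on CD and 215 and 186 CPM on HFD. Every CD library was above every HFD library of its own population (-1.04, SE 0.14, adjusted p = 2.8e-04). Clec12a was at 367 to 708 CPM in the 8 CD libraries (median 602) and at 148 to 447 CPM in the 8 HFD libraries (median 307), with overlap (-0.85, SE 0.10, adjusted p = 8.04e-05).

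Clec4a3 (-0.68, SE 0.13), Clec4a2 (-0.69, SE 0.12), Clec4b1 (-0.95, SE 0.18) and Clec5a (-1.59, SE 0.29) were also lower on HFD, with adjusted p 0.00189 to 0.00259. So were Clec7a (-0.98, SE 0.21, adjusted p = 0.00661), Clec4n, the mannan receptor Dectin-2 (-1.85, SE 0.40, adjusted p = 0.00875), and Clec4d, its relative MCL, which pairs with Mincle (-1.93, SE 0.43, adjusted p = 0.0114). Clec4e passed narrowly (-2.26, SE 0.64, adjusted p = 0.0412), and its call was lost in 15 of 25 omissions of 1 library (-2.38 to -0.86, adjusted p 0.0517 to 0.449). Without the 2 pop2 HFD libraries 6 members passed, and Clec4a2 (-0.43, adjusted p = 0.14), Clec4d (-1.25, adjusted p = 0.15), Clec4e (-1.56, adjusted p = 0.292), Clec4n (-1.47, adjusted p = 0.0925) and Clec7a (-0.54, adjusted p = 0.261) no longer did. Pop2 then drops out of the diet average, and 219 of all genes passed. Mgl2 differed by 0.24 (SE 0.61, adjusted p = 0.873), Klrk1 by -0.01 (adjusted p = 0.991) and Klrb1b by -0.22 (SE 0.66, adjusted p = 0.897), all with edgeR. Each SE was derived from the difference and its F statistic. That is unreliable for a difference this near 0, so none is given for Klrk1. In the 16 adipose libraries alone Mgl2 differed by 0.20 (SE 0.11, adjusted p = 0.368).

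**Figure D4:**
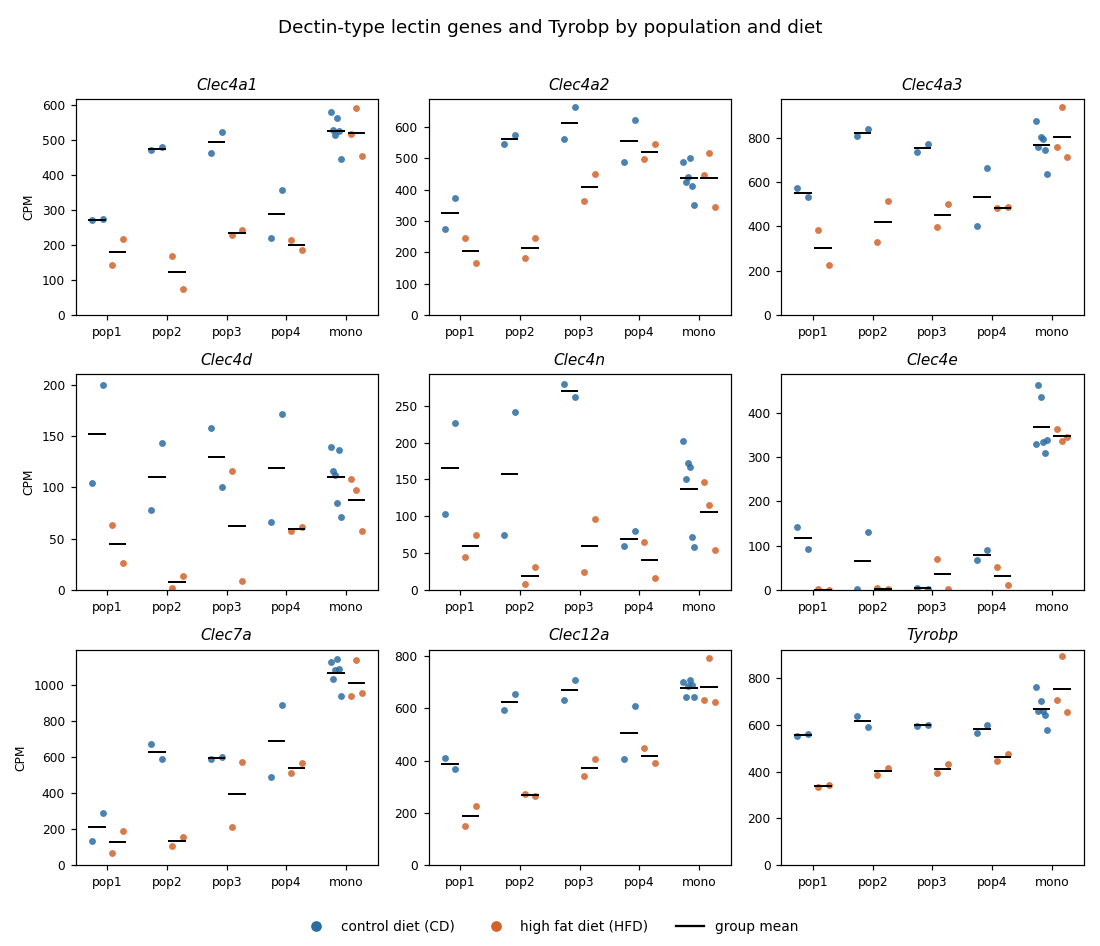
CPM of 8 genes of the Dectin-2 and Dectin-1 clusters and of the adaptor gene Tyrobp in each library (points, blue CD, orange HFD), with group means as lines and a linear axis from 0 in each panel. In pop2 the HFD points of Clec4a1, Clec4a2, Clec7a and Clec12a lie far below the CD points, in monocytes the diets overlap in all 9 panels, and Clec4e is at or below 3.96 CPM in 5 of the 8 adipose HFD libraries.

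Within pop1, 4 described members were lower on HFD, where 0.436% of all genes passed (0.383% lower). Clec5a was at 212 and 210 CPM on CD and 12.1 and 11.4 CPM on HFD (-4.17, SE 0.64, adjusted p = 0.00434). Klra2 was at 17.3 and 12.6 CPM on CD and 0 and 0.487 CPM on HFD (-5.93, SE 0.99, adjusted p = 0.00613). Clec4b1, with the values above, differed by -2.39 (SE 0.37, adjusted p = 0.00434). The 2 libraries of each diet did not overlap for these genes. Clec12a was at 410 and 367 CPM on CD and 148 and 228 CPM on HFD (-1.05, SE 0.21, adjusted p = 0.0222), a call lost in 7 of 25 omissions of 1 library (-1.11 to -0.77, adjusted p 0.0794 to 0.22). The Clec5a call was lost without pop1 HFD replicate 3 (-4.10, adjusted p = 0.0794) and the Klra2 call without pop1 HFD replicate 2 (-4.88, adjusted p = 0.0573). Clec4e was at 142 and 91.9 CPM on CD and 1.93 and 0.162 CPM on HFD (-6.74, SE 1.54, adjusted p = 0.0527).

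Within pop2, 7 described members were lower on HFD, where 4.19% of all genes passed (3.44% lower), and 5 of the 7 were in the Dectin-2 cluster. Clec4d was at 77.8 and 143 CPM on CD and 1.58 and 13.5 CPM on HFD (-3.88, SE 0.95, adjusted p = 0.0213). Clec4n was at 74.5 and 241 CPM on CD and 7.72 and 31.4 CPM on HFD (-3.01, SE 0.85, adjusted p = 0.0457). Clec7a was at 672 and 590 CPM on CD and 106 and 159 CPM on HFD (-2.25, SE 0.43, adjusted p = 0.00329). For each of these the 2 HFD libraries were below both CD libraries. Clec4a1 (-1.97, SE 0.30), Clec4a2 (-1.39, SE 0.25), Clec12a (-1.21, SE 0.21) and Clec4a3 (-0.96, SE 0.25) also passed, with adjusted p 5.72e-04 to 0.0308. Clec4e did not (-4.37, SE 1.37, adjusted p = 0.0791), at 1.32 and 130 CPM on CD and 3.96 and 2.33 CPM on HFD. The calls of Clec4d and Clec4a3 were lost without pop2 CD replicate 8 (-3.40 and -0.96, adjusted p 0.0899 and 0.115) or pop2 HFD replicate 2 (-3.06 and -0.72, adjusted p 0.12 and 0.212), and that of Clec4n in 9 of 25 omissions (-3.05 to -1.96, adjusted p 0.0502 to 0.344). The pop2 HFD libraries had the 2 lowest totals of counts, at 4479775 and 3752835.

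In pop3, pop4 and monocytes no described member passed with edgeR, where 0.0943%, 0.0354% and 0.00590% of all genes passed (0.0825% higher on HFD in pop3). At an unadjusted p under 0.05 there were 12, 2 and 4 of the 38 members, where 11%, 6.99% and 6.89% of all genes were. DESeq2 called 5, 1 and 1 members, where it called 4.12%, 0.772% and 0.825% of all genes. In pop3 DESeq2 called Clec12a, Clec4a1, Klra2, Klra7 and Klrk1. Klrk1 was at 7.28 and 3.58 CPM on CD and 17.4 and 31.2 CPM on HFD there, with no overlap (2.15, SE 0.70, adjusted p = 0.247 with edgeR). In monocytes Clec4e was at 368 ± 64.2 CPM on CD (SD, n = 6) and 349 ± 13.7 CPM on HFD (n = 3), and Klrk1 at 140 ± 61.0 and 132 ± 15.1 CPM.

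The diet difference of Clec4e differed between Tim4+ and Tim4- populations (-6.58, SE 1.31, adjusted p = 0.0262), the only described member to pass, where 0.637% of all genes did (0.0649% higher and 0.572% lower). It was lower on HFD in both Tim4+ populations in the fit (-6.74 in pop1 and -4.37 in pop2), at -1.31 in pop4 and at 3.35 in pop3. In pop2 CD 1 library was at 1.32 and the other at 130 CPM, and in pop3 HFD 1 was at 71.2 and the other at 1.59 CPM. Without pop2 CD replicate 8 the value was -3.78 (adjusted p = 0.173) and without pop3 HFD replicate 2 it was -4.34 (adjusted p = 0.0922). The call was also lost without pop1 HFD replicate 3 (-6.18, adjusted p = 0.0671), pop3 CD replicate 8 (-6.32, adjusted p = 0.0765), pop4 CD replicate 7 (-6.49, adjusted p = 0.11) or pop4 HFD replicate 2 (-5.89, adjusted p = 0.0692).

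**Figure D5:**
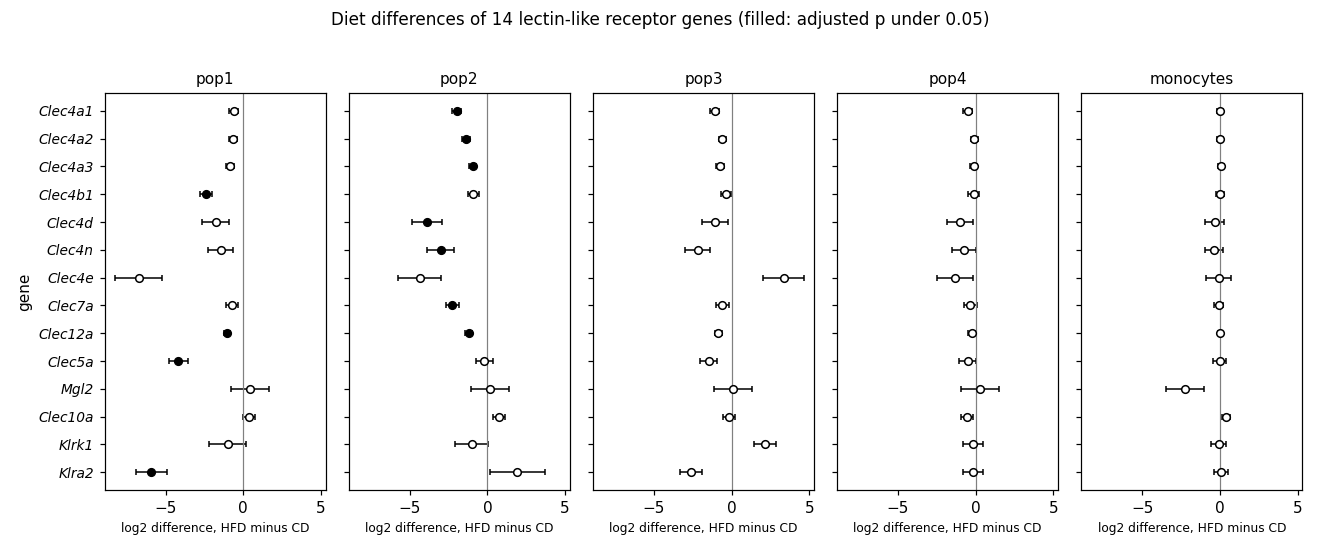
Log2 difference between HFD and CD for 14 lectin-like receptor genes in each population (points, with bars of 1 SE). Filled points passed the adjusted p threshold of 0.05 and open points did not. Filled points occur in pop1 and pop2 and lie left of 0, while in monocytes all 14 points are open.

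The receptors' adaptors and signalling genes formed a list of 18. Tyrobp was at 554 and 562 CPM in pop1 CD and 336 and 345 CPM in pop1 HFD, at 639 and 591 against 386 and 417 CPM in pop2, at 595 and 601 against 395 and 431 CPM in pop3, and at 566 and 602 against 446 and 478 CPM in pop4. In each adipose population both HFD libraries were below both CD libraries (-0.55, SE 0.08, adjusted p = 4.08e-04). Fcer1g was lower as well (-0.50, SE 0.08, adjusted p = 0.00127), and Ptpn6, the phosphatase recruited by inhibitory receptors, was higher (0.83, SE 0.15, adjusted p = 0.00259). Those 3 of 18 were the list's calls over the adipose populations, where 5.34% of all genes passed. Hcst (-0.39, SE 0.19, adjusted p = 0.262), Syk (-0.01, SE 0.15, adjusted p = 1) and Card9 (0.92, SE 0.76, adjusted p = 0.542) did not pass. In adipose macrophages against monocytes 1 was higher and 11 lower, where 18.5% of all genes passed in each direction, with Pik3ap1 (-2.63, SE 0.74) and Plcg2 (-1.77, SE 0.15) among the lower ones and Src (1.93, SE 0.72) the higher one. Tyrobp (-0.54, SE 0.07) and Fcer1g (-0.38, SE 0.07) were lower as well, and Hcst (-0.18, SE 0.16), Syk (0.33, SE 0.13) and Card9 (-1.28, SE 0.61) did not pass. In Tim4+ against Tim4- populations 1 was higher (Src, 2.65, SE 0.76) and 6 lower, where 7.26% and 7.79% of all genes were, led by Malt1 (-1.88, SE 0.29) and Plcg2 (-1.19, SE 0.18), while Tyrobp (-0.13, SE 0.08), Fcer1g (-0.12, SE 0.08), Hcst (0.01, SE 0.19), Syk (0.24, SE 0.15) and Card9 (0.86, SE 0.76) did not pass.

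Of the 9 ligand genes of NKG2D and CD94/NKG2 tested, 3 were lower in adipose macrophages than in monocytes and none higher, where 18.5% of all genes were lower. Raet1e (-5.64, SE 1.04) averaged 0.308 against 7.08 CPM and Raet1c (-3.89, SE 0.91) 0.744 against 5.73 CPM. H2-T23, which encodes Qa-1, the ligand of CD94/NKG2A, averaged 112 against 193 CPM (-0.81, SE 0.14, adjusted p = 1.24e-04). None of the 9 passed between Tim4+ and Tim4- populations or in the adipose diet comparison. Of 16 tested genes with a C-type lectin domain outside the group, and beside the same 18.5% in each direction, 3 were higher in adipose macrophages, among them the mannose receptor gene Mrc1 (3.60, SE 0.20), and 5 lower, among them Cd69 (-6.98, SE 0.81) and Olr1 (-2.68, SE 0.65). In the adipose diet comparison 4 of the 16 were lower on HFD, where 3.67% of all genes were, among them Thbd (-1.22), Cd302 (-0.82) and Cd93 (-0.79), and none was higher.

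Gene model length moved with the diet difference in adipose tissue. Among genes averaging at least 64 CPM, 19.3% of those under 1500 bases were lower on HFD, with a median log2 difference of -0.23. For genes from 1500 to under 3000 bases the values were 12.8% and -0.16, and for 3000 bases or more 5.53% and -0.05. Of the 10 lectins lower on HFD, Clec4b1 (776 bases), Clec4n (1237), Clec4a3 (1296) and Clec4d (1328) fall in the shortest class, and Clec5a (3811 bases) in the longest. The part of length in their diet differences was not tested.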

How the data were processed

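The authors sequenced RNA of 200 sorted cells per library and deposited a table of raw read counts per gene (25 libraries, 24537 genes). Per the submitters' processing notes, STAR 2.5.3a, HOMER and mm10 were used, in roles not stated there. Counting that drops or splits reads shared by close copies would lower or mix the values of Klra, Klrb1, Klrc and Mgl2/Clec10a genes. All comparisons come from 1 edgeR 4.0.16 quasi-likelihood fit (R 4.3.3, TMM scaling, 10 population-by-diet groups, 15 residual degrees of freedom, biological coefficient of variation 0.749) over 16961 genes, with Benjamini-Hochberg adjustment over all of them and a threshold of 0.05. CPM were computed from the counts with TMM-scaled library totals. Of the 69 members 51 were tested, 38 of them among the 39 described (Klra9 was not tested). Members and gene lists were chosen with earlier results of these data known. In each comparison the members past the threshold were named, at most the 10 largest in each direction, plus Klrk1, Klrb1b, Clec4e and Mgl2. Clec7a, Clec2i and Klri1 among the lower genes of adipose macrophages, and Clec4a2 and Clec12a in the Tim4 comparison, lie outside that rule and were chosen after their values were seen. DESeq2 1.42.0, other scalings, filters, sample sets, a covariate, a replicate block and leaving out each library were the alternatives. Total counts of 3752835 to 9336395 per library, without molecular identifiers, limit low values, and the floor covers counting error only. Some genes of the lists are counted but not reported by name here.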

Additional observations from a re-analysis of the deposited data

Results flagged for a closer look

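In the 6 control monocyte libraries, 9 of 39 described genes had 1 library flagged as far from the other 5. Chance flags about 1 in 20 groups, but that rate does not apply to genes with few or no reads in the other 5 libraries. Klra8, Klra21 and Klrb1a had no reads there, and Clec4g, Klra9 and Klrg1 were at or below the floor of 3 counts. Klra8 and Klra21 hold nearly the same reads. Replicate 7 was high for Clec1a (39.4 CPM, the others 0.116 to 10.7), Klra9 (38.3 CPM, the others 0 to 0.125) and Mgl2 (16.7 CPM, the others 0 to 0.748). Replicate 8 was high for Klra7 (60.2 CPM, the others 0 to 8.90), and it held the only reads of Klra8 and Klra21, which overlap on the genome. Both were at 0.117 CPM, below the floor of that library (0.352 CPM). Replicate 6 was high for Clec4g (36.0 CPM, the others 0 to 0.127). Replicate 3 was high for Klrg1 (8.85 CPM, the others 0 to 0.376) and held the only reads of Klrb1a (0.466 CPM).

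The diet difference of Clec4e differed between Tim4+ and Tim4- adipose populations by -6.58 on the log2 scale (adjusted p = 0.0262, edgeR). The libraries behind it disagreed within pairs in pop2 CD and pop3 HFD.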

How the results depend on the processing

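With 2 libraries per adipose group, counts of called members moved with single libraries. Leaving out each in turn gave 22 to 27 for adipose macrophages against monocytes, 10 to 20 for pop4 against monocytes, 11 to 14 for Tim4+ against Tim4-, 2 to 3 for pop2 against pop3, 1 to 3 for pop1 against pop2 and 5 to 10 for pop3 against pop4. For diet it gave 3 to 5 in pop1, 4 to 8 in pop2, 0 to 1 in pop3, 0 to 0 in pop4 and in monocytes, 9 to 10 over the adipose populations and 0 to 2 for the Tim4 difference of the diet effect.

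DESeq2 called 6 members in pop2 against pop3, 3 in pop1 against pop2, 14 in pop3 against pop4, 2 for the Tim4 difference of the diet effect and, for diet, 5 in pop3, 1 in pop4 and 1 in monocytes. In the same order it called 994, 559, 2524, 516, 699, 131 and 140 of all genes. In pop1 against pop2, DESeq2 size factors gave 2, upper-quartile factors 3, the stricter filter (5 CPM in 2 libraries) 3 and omission of the pop2 HFD pair 7. Of all genes 85, 87, 94 and 268 passed in these settings, against 79 in the main fit. The last setting mixes diet into the comparison. The olfactory and vomeronasal receptor covariate gave 6 for Tim4, 1 for pop3 against pop4, 2 for diet in pop1 and 6 for diet over the adipose populations (450, 144, 19 and 379 of all genes). The CD groups alone gave 9 for pop4 against monocytes, 5 for Tim4, 1 for pop2 against pop3 and 2 for pop3 against pop4 (1091, 353, 9 and 297 of all genes). The 16 adipose libraries alone gave 1 for pop2 against pop3, 1 for diet in pop1, 4 for diet in pop2 and 0 for the Tim4 difference of the diet effect (16, 2, 249 and 2 of all genes). The last was also 0 without a filter and without the pop2 HFD pair (100 and 14 of all genes). That pair's omission gave 6 for diet over the adipose populations, with pop2 out of the average (219 of all genes). Without the 6 monocyte libraries with Nkg7, a choice made after seeing the data like the pop2 HFD omission, pop4 against monocytes gave 9. Of 18038 genes tested 824 passed there, against 2113 of 16961 in the main fit. Klri1 in adipose macrophages against monocytes changed sign with the covariate, to 0.44 (SE 1.09). It was at 0.25 without the Nkg7 libraries and 0.09 without monocyte HFD replicate 3, the highest of -3.93 to 0.09 over omissions of 1 library. These last settings leave the HFD monocytes with no Klri1 read, so their sign is not informative. The causes of the other changes were not tested.

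The labels do not say that libraries with the same replicate number share an animal, so the numbers were not taken as pairs. Differences between CD replicates 7 and 8, and between HFD replicates 2 and 3, were hardly correlated across groups (Pearson r across genes -0.0286 to 0.0681). In single libraries of 200 cells this check cannot exclude shared animals. With the replicate block 25, 13, 11, 2, 1 and 6 members passed in the 6 comparisons of populations, in the order above, and 0 for diet in monocytes. Of all genes 3297, 1227, 1749, 30, 26, 554 and 0 passed.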

Other observations

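Control monocytes came in 2 title series, CD (replicates 1, 2 and 3) and CD-CD (replicates 6, 7 and 8). Between them no described member passed (edgeR). Clec10a was 1.01 higher in the CD-CD libraries on the log2 scale (SE 0.24, adjusted p = 0.379). Klrk1 averaged 188 ± 28.4 CPM in the CD-CD and 92.1 ± 40.5 CPM in the CD libraries (SD, n = 3 each). The 11 NK cell markers summed to 432 ± 49.9 and 130 ± 157 CPM in the same libraries, and their part in the Klrk1 levels was not tested.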
